A study of Mus musculus with 12 samples.

Results

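The 42 genes described here encode proteins of the lysosome and of autophagy, and their messenger RNA was read from a table of 23446 genes. They were chosen by gene symbol from a written list of lysosomal hydrolases, lysosomal membrane proteins, proton pump subunits, their transcription factors and autophagy proteins, and a gene had to have at least 10 reads summed over the 12 libraries. All 42 met this minimum, the lowest being Ctsk with 44 reads. Of them, 40 had enough reads to be tested. Ctsc, a peptidase that activates serine proteases of immune cells, and Ctsk, the collagen-degrading protease of osteoclasts, had 1 to 10 and 1 to 7 reads per library and were not tested.

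The cells were C2C12, an established mouse myoblast line that proliferates in growth medium (GM) and withdraws from the cell cycle and forms myotubes in differentiation medium (DM). Either medium carried acetoacetate (AA), a ketone body, or PBS as the control, for 12 h, which gave 4 groups of 3 libraries: GM-PBS and GM-AA in growth medium, DM-PBS and DM-AA in differentiation medium. The labels state neither the dose nor the salt of AA, nor whether the 3 libraries of a group were separate cultures, so the p-values here describe the spread between libraries, which may be technical. A single cell line was used, and the study examined the response of gene expression to AA in each medium.

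Lysosomes degrade what reaches them by endocytosis and autophagy. A rotary proton pump, the V-ATPase, acidifies the lumen, soluble hydrolases cut proteins, glycans and lipids there, and heavily glycosylated membrane proteins line the organelle. The basic helix-loop-helix leucine zipper factors TFEB, TFE3 and MITF (the MiT/TFE family) bind E-box motifs in the promoters of many lysosomal genes, and active mTORC1 keeps these factors in the cytoplasm by phosphorylation. In autophagy, a membrane coated with proteins of the LC3 and GABARAP families closes around cargo and fuses with lysosomes, and in muscle this process supports the turnover of mitochondria and the remodelling of myoblasts into myotubes.

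The libraries held between 7959519 and 9893564 reads counted in genes, and 12230 genes were tested. Markers of the myoblast were present: their 7 genes summed to between 2695 and 2790 CPM (read counts scaled to a common library size with TMM factors) for GM-PBS and between 3144 and 3264 for GM-AA. The corresponding sums were 3111 to 3151 CPM for DM-PBS and 3607 to 3807 CPM for DM-AA. Macrophages and osteoclasts are rich in lysosomes, so their markers were read as well. The 10 macrophage markers summed to 14.5 to 22.0 CPM over all libraries, most of it Cd14, with Emr1, C1qa and C1qb at 0 reads in all 12 libraries. Of 5 osteoclast markers, Ocstamp and Calcr were at 0 reads in all 12 libraries, and the sum was 1.59 to 8.16 CPM, nearly all of it the matrix protease Mmp9.

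Per unit of gene length, taken by the authors as the union of a gene's exons, the highest levels were those of bulk lysosomal proteins. In GM-PBS the deposited RPKM (reads scaled by that length and by library size) was 345 ± 10.9 (mean ± SD, n = 3) for Psap, the precursor of the saposins that present sphingolipids to hydrolases. It was 289 ± 7.58 for the membrane glycoprotein Lamp1 and 288 ± 10.0 for the aspartic protease cathepsin D (Ctsd), which did not differ beyond their spread. The autophagy receptor Sqstm1 (p62) followed at 227 ± 4.62, cathepsin B (Ctsb) at 183 ± 1.07, the cholesterol carrier Npc2 at 166 ± 1.80 and cathepsin L (Ctsl) at 163 ± 5.54, the last 2 again within their spread. The transcription factors had far lower levels, with Tfe3 at 21.8 ± 1.40, Tfeb at 2.67 ± 0.176 and Mitf at 1.98 ± 0.188 RPKM. Summed over the 8 peptidases the RPKM in GM was 824 ± 9.53 with PBS and 935 ± 45.2 with AA, and in DM it was 599 ± 13.9 with PBS and 607 ± 12.5 with AA.

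Since the MiT/TFE factors bind E-boxes, the promoters of these genes were searched for the motif CACGTG, which reads the same on both strands, and for the longer TCACGTG on either strand, each of which contains the first. RefSeq windows from 250 bases before to 50 bases after the gene start (GRCm38.p6) were found for 36 of the 42 genes. CACGTG lay in 11 of these 36 genes (30.6%), against 8.09% of all 27025 genes with such windows and 11.9% of the 9150 tested ones, and TCACGTG lay in 10 (27.8%) against 4.29% and 6.94%. All 11 encode hydrolases, membrane proteins or pump subunits, namely Ctsa, Ctsd, Ctsl, Gaa, Gla, Glb1, Naglu, Lamp1, Mcoln1, Atp6v1a and Atp6v0d1, among 28 such genes with a window. None of the 8 transcription factor and autophagy genes with a window held it, which says only that these letters were not in those windows. A motif match is a description of the sequence and no evidence of binding.

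The stretches below show 5 of these promoters because their genes head the results or hold several motifs; capitals mark CACGTG, and each is written 5′ to 3′ on the strand of its gene. Lamp1 (chr8:13159075-13159176, + strand) holds 4 copies, which begin 61, 45, 28 and 15 bases before the gene start. Mcoln1, which encodes the lysosomal calcium channel TRPML1 (chr8:3500423-3500504, + strand), holds 2 copies, 71 and 45 bases before its start. Ctsa, the carboxypeptidase that protects the sialidase Neu1 from degradation (chr2:164833736-164833792, + strand), has a copy 12 bases before one of its 2 starts and another just after it. Gla, α-galactosidase A (chrX:134601169-134601255, − strand), holds copies 227 and 194 bases before its start. Atp6v1a, the ATP-hydrolysing subunit of the pump (chr16:44139360-44139415, − strand), holds 1 copy, 131 bases before its start. Ctsd also holds 2 copies, 245 and 98 bases before its start, and its longer stretch is not shown.
Lamp1: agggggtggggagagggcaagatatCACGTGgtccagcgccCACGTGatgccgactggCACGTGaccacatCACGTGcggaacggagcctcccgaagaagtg
Mcoln1: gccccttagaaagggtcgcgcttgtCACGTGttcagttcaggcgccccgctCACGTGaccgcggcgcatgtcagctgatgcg
Ctsa: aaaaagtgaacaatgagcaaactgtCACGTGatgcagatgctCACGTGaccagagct
Gla: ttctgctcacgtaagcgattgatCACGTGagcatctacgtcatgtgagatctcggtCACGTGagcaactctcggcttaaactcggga
Atp6v1a: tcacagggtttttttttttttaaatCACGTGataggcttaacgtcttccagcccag

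In growth medium, most tested genes of the lysosome itself were higher with AA, whereas 3 of 6 autophagy genes and Tfe3 were lower. The calls of Tfe3 and of the autophagy gene Bnip3l were lost when certain libraries were left out, as given below. Of 31 tested genes of hydrolases, cofactors, membrane proteins and the pump, 22 rose and 0 fell. Of the 9 tested transcription factor and autophagy genes, 0 rose and 4 fell. The sialidase Neu1 rose by 0.72 on the log2 scale, a 1.65-fold change, and the phosphoinositide-binding autophagy protein Wipi1 fell by 0.50. "Rose" and "fell" refer here to edgeR's quasi-likelihood test with p adjusted over all 12230 genes (Benjamini-Hochberg) and a threshold of 0.05, and values with ± are log2 fold changes with their SE unless another unit is given. Over all 40 tested members 55% rose and 10% fell, against 9.76% higher and 11.0% lower among all tested genes, and their median was 0.15 against -0.0034 for all genes. Changes were small, and Neu1 was the 1 member of 40 past the test that differed by over 1.5-fold. Among all 12230 tested genes 332 did so, a share near that of the members. In bulk RNA such as this, fewer cells of a type and less RNA per cell cannot be told apart.

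**Figure D1:**
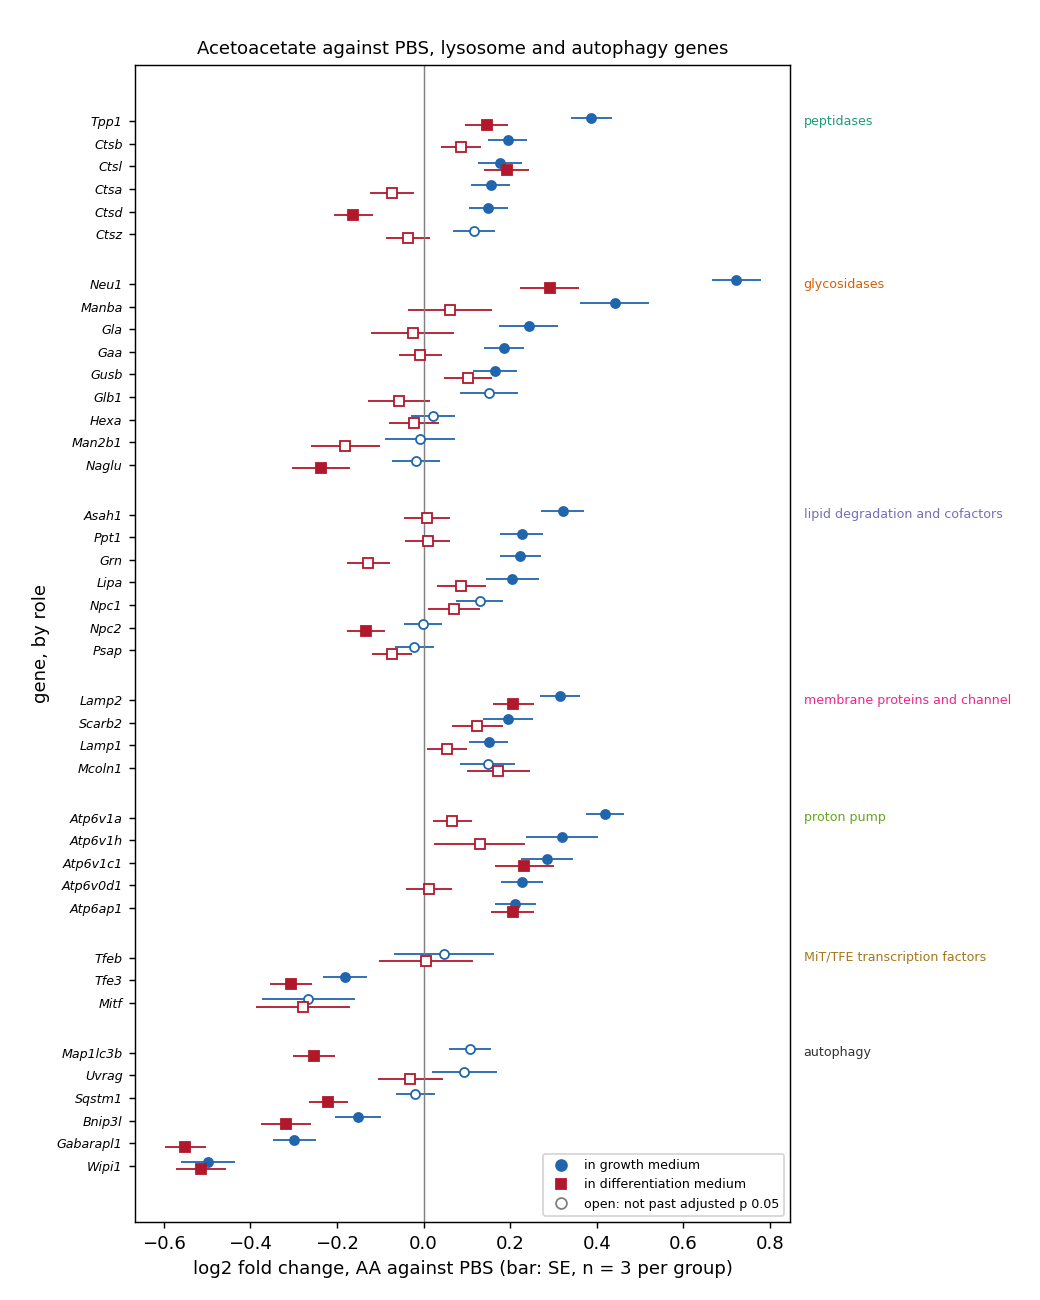
Log2 fold change of AA against PBS (x axis, points with SE, 3 libraries per group) for the 40 tested genes, grouped by role, in growth medium (blue circles) and differentiation medium (red squares), with open symbols for genes not past the test. In growth medium 22 genes of the upper 5 groups lie right of 0 with filled symbols, while 4 genes of the lower 2 groups lie left of 0.

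Among the glycosidases, which trim glycans of glycoproteins and glycolipids, 5 of 9 rose and 0 fell. Neu1 lies at chr17:34931253-34935953 on the + strand of GRCm38. It had 58.4, 59.2 and 56.7 CPM in the 3 GM-PBS libraries and 96.5, 94.9 and 95.9 CPM in the GM-AA libraries. The 2 groups lay far apart, with every AA library above 94 CPM and every PBS library below 60, and the change was 0.72 ± 0.057 (adjusted p = 1.85e-11). Manba, β-mannosidase, had 29.4, 29.8 and 27.7 CPM with PBS and 39.6, 40.0 and 38.3 with AA, groups that again did not overlap, and rose by 0.44 ± 0.079. Gla rose by 0.24 ± 0.068, the glycogen-degrading Gaa (the enzyme deficient in Pompe disease) by 0.19 ± 0.045 and β-glucuronidase (Gusb) by 0.17 ± 0.051. The β-galactosidase Glb1 (0.15 ± 0.067), the hexosaminidase subunit Hexa (0.022 ± 0.051), the mannosidase Man2b1 (-0.0081 ± 0.08) and the heparan sulfate enzyme Naglu (-0.017 ± 0.056) did not pass (adjusted p = 0.111 to 0.959). The call of Gla was lost without GM-AA 1 (adjusted p = 0.0922), and that of Gusb if GM-PBS 1 (adjusted p = 0.0566) or GM-AA 1 (0.0579) was left out and in DESeq2 (adjusted p = 0.0656).

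Of 6 tested peptidases 5 rose. Tpp1, a tripeptidyl peptidase, had 186, 200 and 201 CPM with PBS and 258, 254 and 255 with AA. The lowest AA library stood well above the highest PBS library, and the change was 0.39 ± 0.047 (adjusted p = 1.85e-07). Ctsb went from 1366 ± 8.35 to 1563 ± 41.5 CPM (mean ± SD), a rise of 0.19 ± 0.045, and Ctsa, Ctsd and Ctsl rose by 0.15 ± 0.045, 0.15 ± 0.045 and 0.18 ± 0.051. The Ctsl libraries with AA were spread widely, at 627, 560 and 527 CPM against 500, 491 and 525 with PBS. Cathepsin Z (Ctsz) was at 0.12 ± 0.049 (adjusted p = 0.086) and passed after correction of every library for GC content and length (adjusted p = 0.00381) and without TMM (adjusted p = 0.028). Of these calls 3 were lost when a single library was left out: Ctsa without GM-PBS 3 (adjusted p = 0.0639), Ctsl without GM-PBS 2 or GM-AA 1 (0.0518 and 0.147), and Ctsd in the absence of GM-PBS 3 (0.0871), GM-AA 1 (0.0599) or GM-AA 2 (0.072). Exons of other genes, in GENCODE M21 on GRCm38, cover 26.8% of Ctsl and 17.4% of Ctsa on the opposite strand and 34.4% of Ctsd on the same strand, and the strand of the reads is not known, so these 3 values are uncertain. Opposite-strand cover was smaller for Ctsb (12.8%), Hexa (12.8%) and Lamp1 (9.31%), and the same limit applies to them.

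Genes for lipid degradation and its cofactors rose in 4 of 7 cases. Acid ceramidase (Asah1), which splits ceramide into sphingosine and fatty acid, had 127, 142 and 124 CPM with PBS and 164, 167 and 160 with AA, with no overlap, and rose by 0.32 ± 0.05. The thioesterase Ppt1, which removes palmitate from proteins, rose by 0.23 ± 0.05, progranulin (Grn) by 0.22 ± 0.047 and the acid lipase Lipa by 0.20 ± 0.061. The Lipa call was lost if GM-PBS 1 (adjusted p = 0.106) or GM-AA 1 (0.0952) was left out and after the GC and length correction (adjusted p = 0.0816). Psap (-0.021 ± 0.045) and Npc2 (-0.0017 ± 0.044), among the most abundant members, lay close to 0 with small errors. The cholesterol exporter Npc1 was at 0.13 ± 0.054 (adjusted p = 0.0866), and it passed without GM-PBS 1 (adjusted p = 0.0148), the library with its highest PBS value, 135 CPM.

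All 5 proton pump genes rose, and 3 of 4 membrane protein genes did. Atp6v1a had 250, 248 and 261 CPM in GM-PBS and 338, 334 and 341 in GM-AA. Its AA libraries were tightly grouped above the PBS libraries, and it rose by 0.42 ± 0.044 (adjusted p = 1.17e-08). The subunits Atp6v1h and Atp6v1c1 of the same cytoplasmic sector rose by 0.32 ± 0.083 and 0.29 ± 0.061, the membrane sector subunit Atp6v0d1 by 0.23 ± 0.049 and the accessory protein Atp6ap1 by 0.21 ± 0.047. Atp6v1h, with 109 to 278 reads per library over the 12 libraries, did not pass after the GC and length correction (adjusted p = 0.0507).

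Lamp2, needed for fusion of autophagosomes with lysosomes, had 400, 412 and 429 CPM with PBS and 525, 520 and 500 with AA, all AA libraries being higher, and rose by 0.32 ± 0.046. Lamp1 rose by 0.15 ± 0.045 and Scarb2, a lysosomal membrane protein also known as LIMP-2, by 0.19 ± 0.059, while Mcoln1 was at 0.15 ± 0.064 (adjusted p = 0.099). The Lamp1 call was lost if GM-PBS 2 (adjusted p = 0.059), GM-PBS 3 (0.0535) or GM-AA 2 (0.0935) was left out. That of Scarb2 was lost if GM-PBS 2 (adjusted p = 0.104) or GM-AA 2 (0.0922) was left out, in DESeq2 (adjusted p = 0.054) and in the fit with a replicate block and the GC and length correction (adjusted p = 0.0538). Mcoln1 passed without GM-AA 3 (adjusted p = 0.0456) and without TMM (adjusted p = 0.0466).

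The autophagy genes went the other way or did not pass. Wipi1 had 57.0, 56.8 and 60.4 CPM in GM-PBS and 42.1, 41.4 and 39.9 in GM-AA. The groups did not overlap, and it fell by 0.50 ± 0.062 (adjusted p = 2.77e-07). Gabarapl1, a GABARAP-family protein that is conjugated to autophagosome membranes, had 128, 129 and 133 CPM with PBS and 107, 105 and 105 with AA and fell by 0.30 ± 0.049. Exons on the opposite strand cover 28.3% of Gabarapl1, so its value is uncertain. Bnip3l (NIX), a receptor for the autophagy of mitochondria, fell by 0.15 ± 0.054 (adjusted p = 0.0427), but its libraries overlapped, at 222, 269 and 259 against 235, 212 and 228 CPM. That call was lost if GM-PBS 2 (adjusted p = 0.275), GM-PBS 3 (0.178), GM-AA 2 (0.207) or GM-AA 3 (0.0737) was left out, in DESeq2 (adjusted p = 0.0756), with the GM groups alone (adjusted p = 0.0886), with a replicate block (adjusted p = 0.0583) and without TMM (adjusted p = 0.104).

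Map1lc3b, which encodes the autophagosome protein LC3B, was at 0.11 ± 0.048 (adjusted p = 0.117), Sqstm1 at -0.019 ± 0.044 and Uvrag, a regulator of the autophagy lipid kinase, at 0.094 ± 0.075, none past the test. After the GC and length correction Map1lc3b passed as higher (adjusted p = 0.0438), as it did without TMM (adjusted p = 0.046). Opposite-strand exons cover 17.3% of Sqstm1 and 17.6% of Uvrag. Of the transcription factors, Tfe3 had 134, 118 and 123 CPM with PBS and 108, 114 and 109 with AA and fell by 0.18 ± 0.051 (adjusted p = 0.0106). The call of Tfe3 was lost without GM-PBS 1 (adjusted p = 0.12), its highest PBS library. Tfeb, with 90 to 141 reads per library, was at 0.048 ± 0.12 and Mitf at -0.27 ± 0.11 (adjusted p = 0.82 and 0.0767), and Mitf passed as lower after the GC and length correction (adjusted p = 0.0286).

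**Figure D2:**
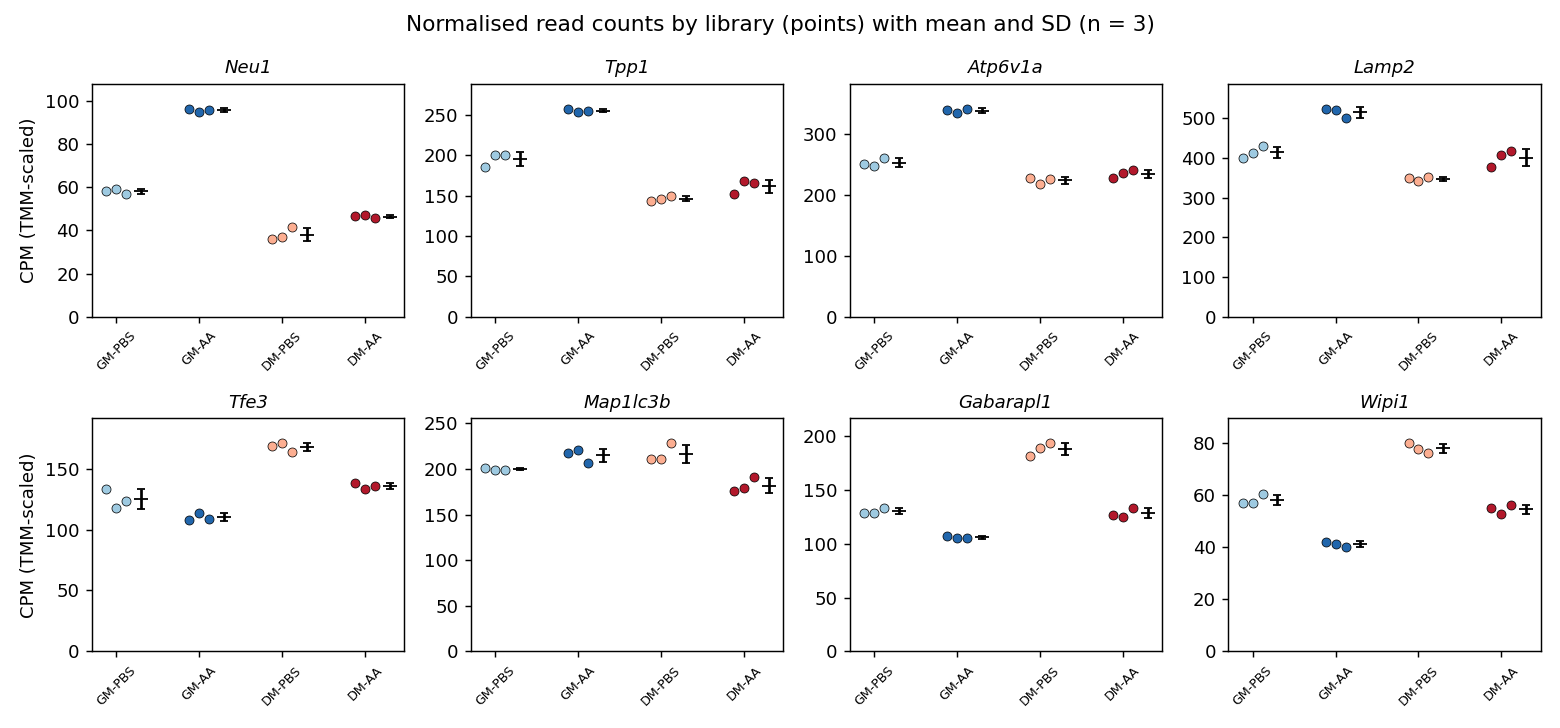
TMM-scaled CPM of 8 genes in each of the 12 libraries (points, y axis from 0), with mean and SD (n = 3) beside each group. Neu1, Tpp1, Atp6v1a and Lamp2 are highest in GM-AA, whereas Tfe3, Gabarapl1 and Wipi1 are highest in DM-PBS and lower with AA in either medium.

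In differentiation medium fewer lysosomal genes changed with AA than in growth medium, and most autophagy genes fell. Of the 31 lysosomal genes 6 rose and 3 fell, and of the 9 transcription factor and autophagy genes 0 rose and 6 fell. Over the 40 members 15% rose and 22.5% fell, against 12.6% and 13.8% of all tested genes, and their median was -0.00070 against 0.0021. The share of the 40 members that rose was therefore close to the background, and all 6 that rose were among the 31 lysosomal genes. Members past the test by over 1.5-fold numbered 0 of 40, against 514 of all tested genes.

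The 6 genes that rose with AA in DM were Neu1, Atp6v1c1, Lamp2, Atp6ap1, Ctsl and Tpp1. Neu1 had 35.9, 36.7 and 41.6 CPM in DM-PBS and 46.5, 47.3 and 45.6 in DM-AA, groups that did not overlap, and rose by 0.29 ± 0.067. Lamp2 went from 347 ± 5.64 to 401 ± 21.1 CPM, a rise of 0.21 ± 0.047, Atp6v1c1 rose by 0.23 ± 0.068, Atp6ap1 by 0.21 ± 0.049, Ctsl by 0.19 ± 0.052 and Tpp1 by 0.15 ± 0.05. Ctsd fell by 0.16 ± 0.046, Naglu fell by 0.24 ± 0.067 and Npc2 fell by 0.13 ± 0.044. Several of these calls were lost when a single library was left out. That of Tpp1 was lost without DM-PBS 1, DM-PBS 2, DM-AA 2 or DM-AA 3 (adjusted p = 0.097, 0.071, 0.131 and 0.108), that of Npc2 without DM-PBS 2, DM-PBS 3, DM-AA 1 or DM-AA 2 (0.0818, 0.154, 0.0843 and 0.0761) and without TMM (0.0736). Atp6v1c1 lost its call without DM-PBS 1 or DM-AA 2 (0.0702 and 0.0761), Ctsl without DM-AA 3 (0.0511), Ctsd without DM-PBS 3 (0.0556) and Naglu without DM-AA 1 (0.0645). After the GC and length correction, Ctsd (adjusted p = 0.0596) and Naglu (adjusted p = 0.0955) did not pass.

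The 22 lysosomal genes that did not pass in DM ranged from -0.18 ± 0.081 for Man2b1 to 0.17 ± 0.072 for Mcoln1. Mcoln1 passed after the GC and length correction (adjusted p = 0.043) and without TMM (adjusted p = 0.0371), Ctsb passed as higher without DM-PBS 3 (adjusted p = 0.0366), and Grn passed as lower with the DM groups alone (adjusted p = 0.0405). Among the pump genes that rose in GM, Atp6v1a (0.067 ± 0.046) and Atp6v0d1 (0.013 ± 0.053) were close to 0.

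Autophagy genes fell in 5 of 6 cases with AA in DM. Gabarapl1 had 181, 189 and 193 CPM in DM-PBS and 127, 124 and 133 in DM-AA. Every AA library lay below every PBS library by a wide margin, and the gene fell by 0.55 ± 0.047 (adjusted p = 4.3e-11), the lowest log2 fold change of the 40 members in this comparison. Wipi1 had 79.8, 77.7 and 76.1 against 55.1, 52.7 and 56.0 CPM and fell by 0.51 ± 0.057. Bnip3l, whose DM libraries did not overlap (169, 171 and 168 against 138, 135 and 136 CPM), fell by 0.32 ± 0.058. Map1lc3b had 211, 211 and 228 CPM with PBS and 176, 179 and 191 with AA, without overlap, and fell by 0.25 ± 0.049. Sqstm1 fell by 0.22 ± 0.044, and Uvrag was at -0.03 ± 0.075. Tfe3 had 169, 171 and 164 CPM against 138, 133 and 136 and fell by 0.31 ± 0.049 (adjusted p = 1.12e-05), while Mitf (-0.28 ± 0.11, adjusted p = 0.0565) and Tfeb (0.0057 ± 0.11) did not pass. Mitf passed as lower after the GC and length correction (adjusted p = 0.0182) and without DM-AA 2 (adjusted p = 0.0479).

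The difference between the effect of AA in DM and its effect in GM was tested directly. It was negative and past the test for 9 of the 40 genes and positive for 0, that is 22.5% and 0%, against 2.67% and 2.58% of all tested genes. Whether past the test or not, 38 of the 40 estimates were below 0, with a median of -0.16 against -0.0011 for all genes. The 40 estimates are not independent, since all rest on the same 12 libraries. Ctsl (0.015 ± 0.073) and Mcoln1 (0.025 ± 0.096) were the 2 estimates above 0.

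Of the 9 genes, Neu1 (-0.43 ± 0.088), Tpp1 (-0.24 ± 0.069), Atp6v1a (-0.35 ± 0.064) and Asah1 (-0.31 ± 0.073) rose in GM by more than their estimate in DM. Ctsd (-0.31 ± 0.064) rose in GM and fell in DM. Grn (-0.35 ± 0.068) and Ctsa (-0.23 ± 0.068) rose in GM and had estimates below 0 in DM that did not pass. The autophagy genes Map1lc3b (-0.36 ± 0.068) and Gabarapl1 (-0.25 ± 0.068) had lower estimates in DM than in GM. For Wipi1 the difference was -0.016 ± 0.085 and for Tfe3 -0.12 ± 0.071, neither past the test. For Ctsa the call was lost in the absence of replicate 1 or 3 of GM-PBS, 2 or 3 of GM-AA, 1 or 2 of DM-PBS, or 1 or 3 of DM-AA (adjusted p = 0.0601 to 0.117), in DESeq2 (adjusted p = 0.066) and with no low-count filter (adjusted p = 0.0565). For Tpp1 it was lost if GM-PBS 1, GM-AA 3, either of DM-PBS 2 and 3, or DM-AA 1 was left out (adjusted p = 0.0528 to 0.108), and that of Gabarapl1 without DM-PBS 2, DM-PBS 3 or DM-AA 2 (adjusted p = 0.0504, 0.0508 and 0.0756). Sqstm1 (-0.20 ± 0.063, adjusted p = 0.0548) passed in DESeq2 (adjusted p = 0.0261), with no low-count filter (0.0474), after the GC and length correction (0.0207), and without GM-PBS 1, GM-AA 3 or DM-AA 1 (0.0439, 0.0425 and 0.0379). Ppt1 (-0.22 ± 0.072) passed after that correction (0.0353) and without GM-PBS 2 (0.0275), Atp6v0d1 (-0.21 ± 0.072) without GM-AA 3 (0.0382) and Manba (-0.38 ± 0.13) without DM-AA 2 (0.0387).

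Differentiation medium went with lower levels of nearly all lysosomal genes among the members. Without AA, 28 of the 31 lysosomal genes were lower in DM than in GM and 1 was higher, and of the 9 transcription factor and autophagy genes 5 were higher and 1 was lower. Over the 40 members 72.5% fell and 15% rose, against 27.4% and 27.0% of all tested genes, with a median of -0.37 against 0.0071. Members past the test by over 1.5-fold numbered 10 of 40 here, against 2155 of all 12230 tested genes. When both media carried AA they numbered 17 of 40, against 1995 of all tested genes. The comparison of the media in PBS uses the GM-PBS and DM-PBS libraries that also serve as controls for AA, so the fold changes are given side by side and were not correlated.

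**Figure D3:**
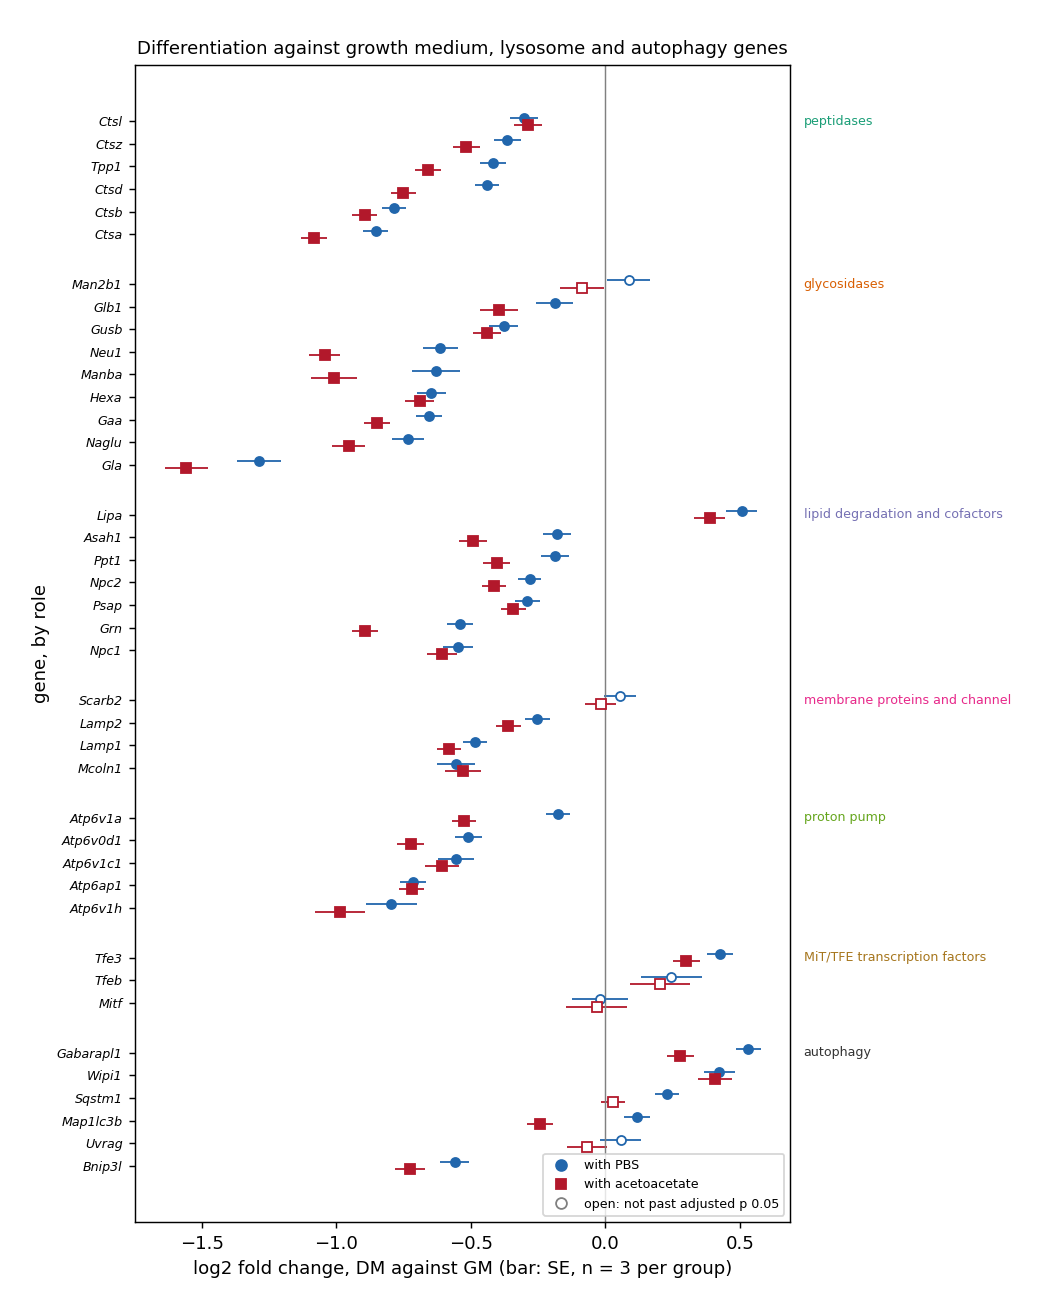
Log2 fold change of DM against GM (x axis, points with SE, 3 libraries per group) for the 40 tested genes with PBS (blue circles) and with AA (red squares), open symbols marking genes not past the test. Most hydrolase, membrane protein and pump genes lie left of 0, from -1.29 for Gla with PBS, while Lipa, Tfe3, Gabarapl1 and Wipi1 lie to the right with both treatments.

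Gla had 56.8, 52.8 and 52.7 CPM in GM-PBS and 22.8, 20.8 and 22.7 in DM-PBS. No DM library came near a GM library, and the gene was lower by a log2 fold change of -1.29 ± 0.081, the largest of the 40. Ctsa fell from 221 ± 7.71 to 122 ± 3.20 CPM (-0.85 ± 0.048), Ctsb from 1366 ± 8.35 to 792 ± 43.4 CPM (-0.79 ± 0.046), and Naglu fell by 0.73 ± 0.06. All 6 tested peptidases, 8 of 9 glycosidases, 6 of 7 lipid genes, 3 of 4 membrane genes and all 5 pump genes were lower. Among the pump genes the change ran from -0.18 ± 0.045 for Atp6v1a to -0.79 ± 0.096 for Atp6v1h, and Atp6ap1 was at -0.71 ± 0.048. Lamp1 fell by 0.48 ± 0.046, Mcoln1 fell by 0.56 ± 0.069 and Lamp2 fell by 0.25 ± 0.047.

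Lipa was the exception, with 60.3, 68.0 and 67.0 CPM in GM-PBS and 89.8, 93.1 and 94.6 in DM-PBS. Its groups did not overlap and it rose by 0.51 ± 0.059. Scarb2 (0.053 ± 0.06) and Man2b1 (0.086 ± 0.079) did not pass. The autophagy genes Gabarapl1, Wipi1, Sqstm1 and Map1lc3b rose by 0.53 ± 0.047, 0.42 ± 0.057, 0.23 ± 0.044 and 0.12 ± 0.048, and Tfe3 rose by 0.43 ± 0.049. Bnip3l, the mitophagy receptor, differed from them and fell by 0.56 ± 0.055. Tfeb was at 0.25 ± 0.11 (adjusted p = 0.0638), and passed without TMM (adjusted p = 0.0481), and Mitf was at -0.02 ± 0.1. The Map1lc3b call was lost without GM-PBS 1, GM-PBS 2, GM-PBS 3 or DM-PBS 3 (adjusted p = 0.0571, 0.0781, 0.0902 and 0.204), in DESeq2 (0.0677) and with no low-count filter (0.064). The call of Glb1 (-0.19 ± 0.07) was lost without GM-PBS 1, GM-PBS 3, DM-PBS 1 or DM-PBS 2 (0.087, 0.0668, 0.159 and 0.067) and in DESeq2 (0.0677), and that of Asah1 (-0.18 ± 0.052) without GM-PBS 2 (0.0703).

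With AA in both media, DM against GM gave 28 of 31 lysosomal genes lower and 1 higher. Of the 40 members 75% fell and 10% rose, against 26.3% and 25.9% of all tested genes, with a median of -0.52 against 0.0058. Neu1 fell by 1.04 ± 0.059 with AA and by 0.61 ± 0.065 with PBS, and Atp6v1a fell by 0.53 ± 0.045 with AA and by 0.18 ± 0.045 with PBS. These gaps are the differences of the AA effects given above. Gla fell by 1.56 ± 0.08, Ctsa fell by 1.08 ± 0.048 and Manba fell by 1.01 ± 0.085. Of the 9 transcription factor and autophagy genes 3 were higher and 2 were lower. Gabarapl1, Wipi1, Tfe3 and Lipa were again higher in DM, by 0.28 ± 0.049, 0.41 ± 0.063, 0.30 ± 0.051 and 0.39 ± 0.058. Sqstm1 did not pass (0.029 ± 0.044), and Map1lc3b fell by 0.24 ± 0.049. Bnip3l was again lower, at -0.73 ± 0.057.

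Genes with and without the promoter motif were both found among those that rose with AA in GM. Of the 11 lysosomal genes with CACGTG in the window, 8 rose with AA in GM, with a median of 0.15. Of the 15 tested lysosomal genes whose window lacked it, 10 rose, with a median of 0.20, and Neu1 and Tpp1 were among these. With AA in DM, 1 of the 11 with the motif rose and 2 fell, and of the 15 without it 4 rose and 1 fell. For DM against GM in PBS all 11 with the motif and 12 of the 15 without it fell, with medians of -0.51 and -0.36. Of all tested genes 9.76% rose with AA in GM, 12.6% rose and 13.8% fell with AA in DM, and 27.4% fell for the media in PBS. These counts are descriptions of a small set and were not tested.

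A further 114 genes of the same pathways, from lists of other hydrolases, enzyme delivery, membrane proteins, pump subunits, autophagy and mTORC1 control, gave 111 tested genes. With AA in GM 33 of them rose and 12 fell, and with AA in DM 12 rose and 22 fell. In GM these were 29.7% higher and 10.8% lower, against 9.76% and 11.0% of all tested genes, so that the share that fell was near the background. In DM they were 10.8% higher and 19.8% lower, against 12.6% and 13.8%, and the share that rose was near the background. Of 13 other pump subunits 5 rose and 0 fell in GM, among them Atp6v1d (0.50 ± 0.062) and Atp6v1g1 (0.39 ± 0.051). Of 14 other membrane proteins 7 rose and 0 fell, including Ostm1, the partner of the lysosomal chloride transporter, at 0.51 ± 0.052, and Laptm4b at 0.41 ± 0.059. Of 20 other hydrolases only 4 rose and 0 fell. Of 10 enzyme delivery genes 4 rose and 0 fell, with the mannose 6-phosphate receptor Igf2r at 0.30 ± 0.052 and Gnptg, a subunit of the enzyme that makes the mannose 6-phosphate tag, at 0.40 ± 0.12. The Gnptg call was lost if GM-AA 1 (adjusted p = 0.0782) or GM-AA 3 (0.0711) was left out and in DESeq2 (0.0777).

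Among the other autophagy genes, more fell than rose with AA in both media. Of 32 tested, 3 rose and 9 fell with AA in GM, and 1 rose and 15 fell in DM. The shares that fell were 28.1% in GM and 46.9% in DM, against 11.0% and 13.8% of all tested genes, while the 9.38% that rose in GM was near the background of 9.76%. The coiled-coil protein Calcoco1, a receptor for autophagy of the endoplasmic reticulum, fell by 0.41 ± 0.065 in GM and by 0.41 ± 0.051 in DM, and Wdr45, a relative of Wipi1, fell by 0.85 ± 0.13 and 0.87 ± 0.11. Without AA, 15 of these 32 genes were higher in DM than in GM (46.9% against 27.0% of all tested genes) and 6 lower (18.8% against 27.4%), from Calcoco1 at 1.47 ± 0.056 to the mitophagy receptor Bnip3 at -1.49 ± 0.082. In the same comparison of media, 10 of 13 other pump subunits, 8 of 20 other hydrolases, 7 of 14 other membrane proteins and 5 of 10 delivery genes fell, and 2, 4, 4 and 1 rose, with Atp6v1g1 at -0.84 ± 0.053 and Ostm1 at -0.65 ± 0.058. The shares that fell were 76.9%, 40%, 50% and 50%, against 27.4% of all tested genes, and those that rose were 15.4%, 20%, 28.6% and 10%, against 27.0%. With 10 to 20 genes a list, a few genes move these shares widely.

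Of 22 genes of mTORC1 and TFEB control, 10 rose and 3 fell with AA in GM, and 4 rose and 3 fell in DM. The share that rose in GM was 45.5%, against 9.76% of all tested genes. The shares that fell, 13.6% in both media, were near the backgrounds of 11.0% and 13.8%, and the 18.2% that rose in DM stood against 12.6%. Rragd, a GTPase of the complex that brings mTORC1 to the lysosome and itself a known target of the MiT/TFE factors, went from 26.9 ± 0.901 to 51.3 ± 3.41 CPM in GM and from 14.9 ± 0.744 to 24.9 ± 2.34 CPM in DM. It rose by 0.93 ± 0.077 and 0.74 ± 0.098. Fnip2, a partner of the GTPase regulator folliculin, rose by 0.36 ± 0.051 in GM and was at 0.13 ± 0.063 in DM (adjusted p = 0.138). Ppp3ca, a catalytic subunit of calcineurin, the phosphatase that acts on TFEB, fell by 0.38 ± 0.077 in GM and by 0.57 ± 0.074 in DM. Without AA, 9 of these 22 genes were lower in DM than in GM (40.9% against 27.4% of all tested genes) and 3 higher (13.6% against 27.0%), with Fnip2 at -1.04 ± 0.058 and Rragd at -0.85 ± 0.096. The difference of the AA effects was past the test and negative for 6 of the 111 genes (5.41%) and positive for 0 (0%). Among all tested genes these shares were 2.67% and 2.58%. The 6 genes included the pump subunits Atp6v1b2 (-0.39 ± 0.076) and Atp6v0a1 (-0.34 ± 0.078), and none of the 32 other autophagy genes.

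Across all genes, the fold change with AA varied with transcript GC content. Spearman's rho between the log2 fold change of AA and the GC content across 12144 genes was -0.274 in GM and -0.266 in DM, and 0.0374 for DM against GM in PBS. These correlations are across genes that share the same libraries, and no test is attached. The tested members had a median GC content of 51.3% against 49.7% for all tested genes. By role the median was 44.6% for the pump, 45.7% for the lipid genes and 48.3% for the membrane proteins. It was 51.9% for the peptidases, 53.2% for the glycosidases, 52.1% for the transcription factors and 51.6% for the autophagy genes. After correction of every library for its trend with GC and length, 24 of the 26 calls in GM and 13 of the 15 in DM were still past the test in the same direction, and the median of the members in GM was 0.17 in place of 0.15. Neu1 had a GC content of 53.2%.

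**Figure D4:**
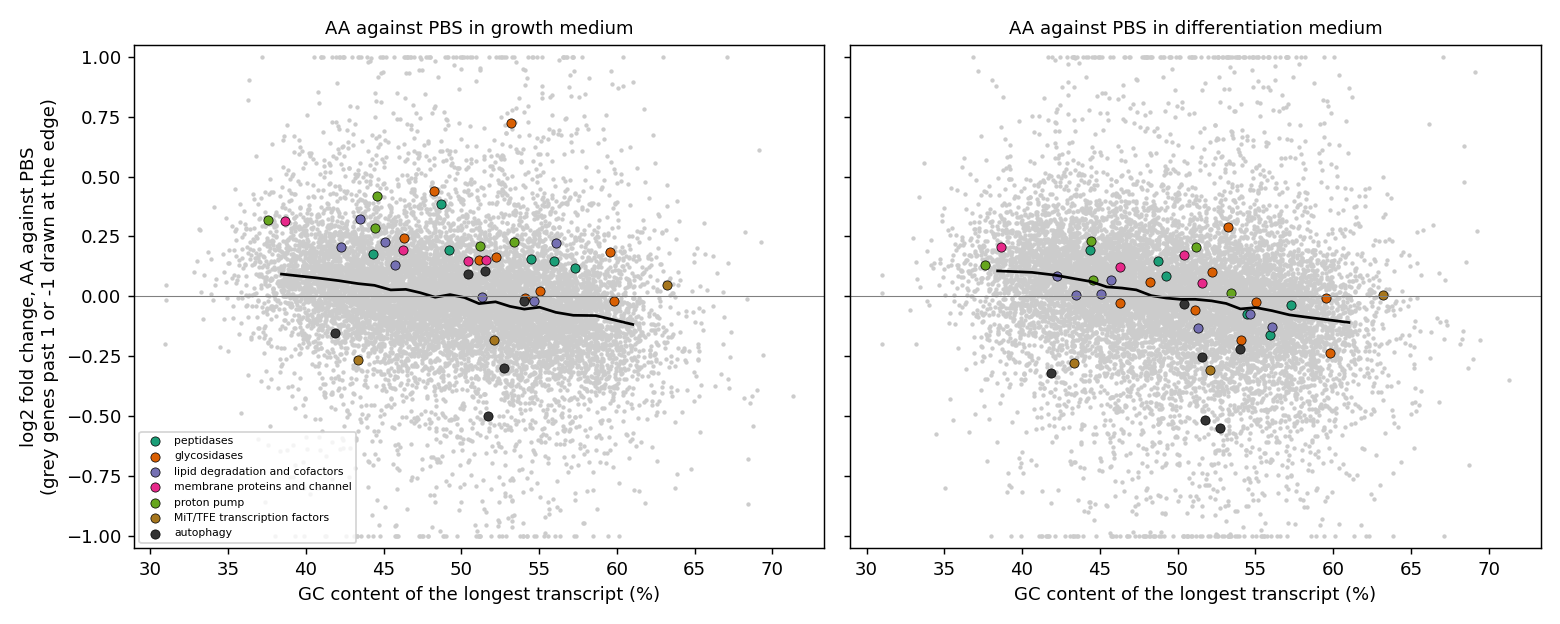
Log2 fold change of AA against PBS (y axis) against the GC content of the longest transcript (x axis, percent) for 12144 genes in grey and the tested members in the colour of their role, with the black line joining the medians of 20 bins of equal gene number. The line falls with GC content in both media, and in growth medium most hydrolase, membrane and pump genes lie above it while Wipi1 and Gabarapl1 lie below.

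The sum of the myoblast markers also moved with AA and with the medium, as given above. Of 7 such markers 5 rose and 1 fell with AA in GM, and 5 rose and 0 fell in DM. For DM against GM in PBS 4 of the 7 rose and 1 fell. Among all tested genes 9.76% rose and 11.0% fell with AA in GM, and 12.6% and 13.8% in DM. For the media in PBS these shares were 27.0% and 27.4%. Des had the highest level, 1451 ± 29.0 CPM in GM-PBS, and Msc the lowest, 4.03 ± 1.73 CPM. Myod1 went from 225 ± 7.88 CPM in GM-PBS to 178 ± 11.7 CPM in GM-AA. The part of the myoblast markers in the results for lysosome and autophagy genes was not tested. Of the macrophage markers, Emr1, C1qa and C1qb had 0 reads, Csf1r had 70 reads over the 12 libraries (group means of 0.502 to 0.774 CPM), and Mpeg1 had 52 reads, at 0.0401 CPM in GM-PBS, 0.346 in GM-AA, 0.662 in DM-PBS and 1.01 in DM-AA. Among these markers 2, Cd14 and Cd68, had enough reads for a test, and neither was past it for AA in either medium. Cd68, which encodes a lysosomal membrane protein of macrophages, was lower in DM than in GM, at 1.80 ± 0.511 CPM in DM-PBS against 3.40 ± 0.295 CPM in GM-PBS. Mmp9, the 1 osteoclast marker with enough reads for a test, rose from 1.67 ± 0.168 CPM in GM-PBS to 7.74 ± 0.265 CPM in DM-PBS (2.21 ± 0.2), and DM against GM in AA gave 1.33 ± 0.2. The part of these markers in the comparison of the media was not tested.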

How the data were processed

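Messenger RNA of C2C12 cells was sequenced in 12 libraries, 3 in each of 4 groups taken from the sample labels. The authors deposited 1 table with raw read counts and RPKM values per gene and library, per the file headers. Reads were aligned with BWA 0.5.9-r16 and the build was mm9, per the submitters' processing notes. How reads were counted, with which gene models, whether strand was used and how reads with several matches were treated is not known from the labels or headers. Positions and GC content were taken by symbol from GENCODE M21 on GRCm38, and promoter windows from RefSeq on GRCm38.p6, so no coordinates of the authors' build were used.

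The counts were tested with edgeR 4.0.16 in R 4.3.3: genes were filtered by filterByExpr, libraries scaled by TMM, 4 group means fitted to all 12 libraries (8 residual degrees of freedom) by the quasi-likelihood method, and p-values adjusted by Benjamini-Hochberg over 12230 genes, with 0.05 as the threshold. The SE is the log2 fold change divided by the square root of the F statistic. CPM values were computed from the counts and TMM factors; the deposited RPKM served to compare levels between genes. Alternatives were RLE factors, DESeq2 1.42.0, no low-count filter, the compared groups alone, a replicate block, removal of each library's GC and length trend, both together, no TMM, and leaving out each library. The test script was tested on simulated data. Summed reads of 7959519 to 9893564 per library limit the precision of low genes such as Tfeb.

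Members and gene lists were chosen with earlier results of these data known. Every member is accounted for; members described in most depth are those past the test with the largest fold change in their role, plus Tfeb, Tfe3, Mitf, Lamp1, Ctsl, Sqstm1 and Map1lc3b. Up to 2 genes of each other list were named per comparison by smallest p, and some were followed in the other comparisons. Some genes of the other lists are not reported here.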

Additional observations from a re-analysis of the deposited data

Results flagged for a closer look

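For 9 genes the effect of AA differed between the media by edgeR's quasi-likelihood test of the difference itself, over 3 libraries per group. In each the log2 effect in DM minus that in GM was negative. Among hydrolases and their cofactors the difference was -0.43 for Neu1 (adjusted p = 0.00184), -0.35 for Grn (adjusted p = 0.0011), -0.31 for Asah1 (adjusted p = 0.00633), -0.31 for Ctsd (adjusted p = 0.00194), -0.24 for Tpp1 (adjusted p = 0.0314) and -0.23 for Ctsa (adjusted p = 0.0404). For the pump subunit Atp6v1a it was -0.35 (adjusted p = 0.000476). For the autophagy genes it was -0.36 for Map1lc3b (adjusted p = 0.000939) and -0.25 for Gabarapl1 (adjusted p = 0.0211). The calls of Ctsa, Tpp1 and Gabarapl1 were each lost when single libraries were left out. For Ctsa these were GM-PBS 1 and 3, GM-AA 2 and 3, DM-PBS 1 and 2, and DM-AA 1 and 3 (adjusted p = 0.0601 to 0.117). For Tpp1 they were GM-PBS 1, GM-AA 3, DM-PBS 2 and 3, and DM-AA 1 (adjusted p = 0.0528 to 0.108), and for Gabarapl1 DM-PBS 2 and 3 and DM-AA 2 (adjusted p = 0.0504 to 0.0756).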

How the results depend on the processing

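No member that passed the test changed direction under any alternative run. Under every alternative run, 15 of 26 calls for AA in GM were past the test, as were 9 of 15 for AA in DM, 32 of 35 for DM against GM in PBS, 34 of 34 in AA and 6 of 9 for the difference of the AA effects. Leaving out 1 library gave 17 to 23 members higher and 3 to 4 lower with AA in GM, 4 to 7 higher and 7 to 9 lower in DM, and 6 to 10 lower for the difference. Over all genes, DESeq2 gave 787 higher with AA in GM against 1194; the cause was not tested. Without TMM the split over all genes in GM was 1563 higher and 1099 lower against 1194 and 1340, and the median log2 fold change of all genes was 0.0234 against -0.0034. Replicate numbers did not pair the libraries: deviations from the group means of libraries with the same number correlated at -0.028 to 0.024, and 1 of 12 pairs matched its own number best. With a replicate block 22 members were higher and 3 lower with AA in GM, 6 higher and 9 lower in DM, and 9 lower for the difference; Bnip3l in GM lost its call (adjusted p = 0.0583). Low counts limit Tfeb and Mitf, and left Ctsc and Ctsk untested.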
